A study of Rattus norvegicus with 8 samples.

Results

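The cells compared here were from the callus, the tissue that forms around a healing fracture, of Sprague Dawley rats 4 weeks after the femur was broken. In 1 library the rats had received zoledronate and magnesium, and in the other zoledronate alone. Every barcode with at least 5000 unique molecular identifiers (UMIs, which count captured transcripts) was taken as a cell, which gave 14920 cells of the 65208 that passed the same minimum over all 8 libraries of the series. Of these, 7268 were in the magnesium library and 7652 in the zoledronate library. Per the labels, zoledronate was injected under the skin at 0.3 mg/kg each week for 12 weeks before a closed fracture of 1 femur, which was fixed with a stainless steel or a magnesium-containing intramedullary nail. The labels do not say which rats had which nail, and do not state how many animals each library came from, their age or their sex. The other libraries of week 4 were from rats given zoledronate with CGRP (calcitonin gene-related peptide, a neuropeptide) and from control rats.

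Zoledronate is a nitrogen-containing bisphosphonate that binds to bone mineral and blocks farnesyl diphosphate synthase in the mevalonate pathway, which stops osteoclasts from resorbing bone. Long use of such drugs is linked to atypical fractures of the femur, and the series title is about magnesium in the healing of such fractures. Magnesium released from an implant can enter cells through channels such as Trpm7, and magnesium implants are known for their effect on periosteal nerves and on the release of CGRP. Callus tissue had been digested with collagenase A for 4 hours, and the released cells were cultured for 24 hours before sequencing, so the cells measured are those that survived in the dish.

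Both libraries had the profile of collagen-producing stromal cells. Col1a1, which encodes the main collagen chain of bone and fibrous tissue, was at 20738 counts per 1000000 UMIs (CPM) in the magnesium library and 22645 CPM in the zoledronate library, and it was detected in every cell of both. All 10 fibroblastic markers were detected. Csf1r, the receptor that macrophages depend on, was at 0.0800 CPM in magnesium and 0.102 CPM in zoledronate. Ptprc, C1qa, the osteoclast genes Ocstamp, Dcstamp and Calcr, and the lymphocyte genes Cd3e and Cd79a were not listed in either library. Every listed gene was detected in at least 5 barcodes of its library, so a gene not listed may still have had a few UMIs. Genes of mature bone and hyaline cartilage were low. Bglap (osteocalcin) was at 0.107 CPM in magnesium and 0.185 CPM in zoledronate. The hyaline cartilage collagen Col2a1 was at 0.0733 CPM in magnesium and was not listed in zoledronate. Other genes of these lists were expressed: the chondrocyte markers summed to 258 CPM in magnesium and 256 CPM in zoledronate, with Acan and Hapln1 among them, and the osteoblast markers to 87.5 CPM in magnesium and 82 CPM in zoledronate. The 12 macrophage markers summed to 15.2 CPM in magnesium and 13.1 CPM in zoledronate, and the 10 osteoclast markers to 168 CPM in magnesium and 141 CPM in zoledronate. The label of fracture callus cells was thus borne out for stromal cells. By the macrophage, osteoclast and lymphocyte genes named above, it was not borne out for those cells, although other markers on the macrophage and osteoclast lists were expressed.

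The libraries were sequenced to like depths, with 149970129 UMIs kept in magnesium and 156788841 in zoledronate, and medians of 19384 UMIs per cell in magnesium and 19130 in zoledronate. Barcodes below 5000 UMIs made up 11.7% of the deposited barcodes in magnesium (960 of 8228, 95% exact binomial interval 11.0 to 12.4%) and 4.68% in zoledronate (376 of 8028, 4.23 to 5.17%). Few cells lay at the minimum: 39 in magnesium and 22 in zoledronate were within 1000 UMIs above it, and 85 barcodes in magnesium and 28 in zoledronate were within 1000 UMIs below it and left out. The pair shared 12 cell barcodes, within the range of 11 to 26 over the 28 pairs of libraries in the series. With 1 library for each treatment there was no replicate, so the values compare 2 libraries, and treatment, animal and library preparation cannot be told apart. No test was possible, and the intervals given cover counting error only.

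Most genes were alike in the magnesium and zoledronate libraries, and a small set differed strongly. Of the 7194 genes compared, which were listed in both libraries and averaged at least 5 CPM, 119 (1.65%) were at least 25% higher in magnesium. By the same factor, that is with zoledronate at least 25% above magnesium, 124 (1.72%) were lower, which made 243 (3.38%) either way. Below, higher and lower in counts of genes refer to this threshold, and each count from a list is to be read beside these shares of all genes. At 1.5-fold, 44 genes (0.612%) were higher and 38 (0.528%) lower. Ratios are given as log2 of CPM plus 1, magnesium over zoledronate, and had a standard deviation of 0.16 and a median of -0.01 over all genes. Among the genes that differed most were immediate early genes, class I histocompatibility genes and genes of the extracellular matrix.

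**Figure D1:**
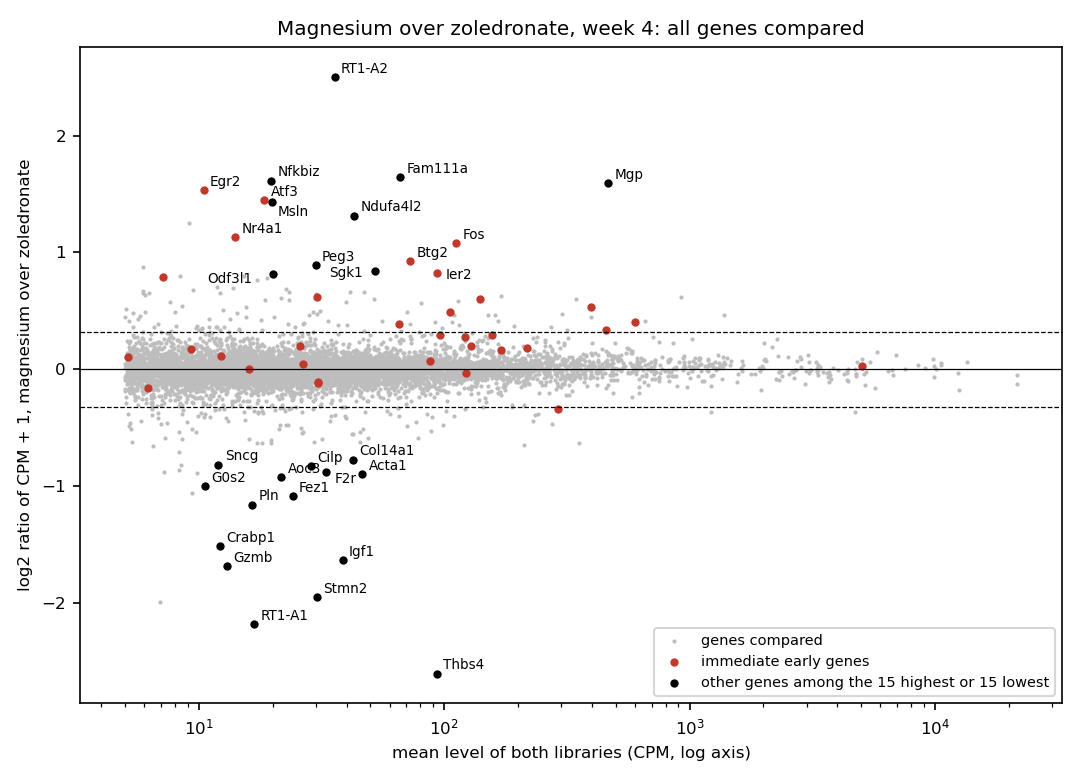
Log2 ratio of magnesium over zoledronate (y axis, CPM plus 1) against the mean level of the 2 libraries (x axis, CPM, log axis) for the 7194 genes compared at week 4, each point a gene, with immediate early genes in red, the 15 highest and 15 lowest genes labelled and dashed lines at the 25% threshold. The labelled genes were taken at a mean of at least 10 CPM, leaving out identifiers with no gene name. Of the labelled genes, Thbs4 lies lowest at -2.61 and RT1-A2 highest at 2.50. Most genes lie between the dashed lines, and the immediate early genes lie mostly above 0.

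Immediate early genes are switched on within minutes of a stimulus, without new protein synthesis, by transcription factors that wait on their promoters, such as CREB at cyclic AMP response elements and serum response factor at CArG boxes. Many of their products are themselves transcription factors, and others are phosphatases or RNA-binding proteins that end the response. Mechanical load, growth factors and neuropeptides are known stimuli in bone cells. The cells here had been digested from the callus and cultured before sequencing, so the levels below are those of cells in a dish. The part of this handling in them was not tested. The list examined held 44 such genes.

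Immediate early genes stood higher in the magnesium library than in the zoledronate library. Of the 33 members compared, 14 were higher in magnesium and 1 was lower, and 27 had a log2 ratio above 0, with a median of 0.28 against -0.01 over all genes. Among all genes 1.65% were higher, 1.72% were lower and 47.1% had a ratio above 0. At 10 CPM or more, leaving out identifiers with no gene name, 6 of the 15 genes with the highest ratios were members of this list. The other 11 members were below 5 CPM on average, Egr1 among them at 3.19 CPM in magnesium and 1.33 CPM in zoledronate.

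Among the transcription factors, Fos, a subunit of AP-1, was at 152 CPM in magnesium (95% exact Poisson interval 150.1 to 154), against 71.2 CPM in zoledronate (69.9 to 72.5), a log2 ratio of 1.08. Egr2, a zinc finger factor, was at 16 CPM in magnesium (15.4 to 16.7), against 4.88 CPM in zoledronate (4.54 to 5.24), a ratio of 1.53. Atf3, a stress-responsive partner of AP-1 proteins, was at 27.5 CPM in magnesium, against 9.45 CPM in zoledronate, and the orphan nuclear receptor Nr4a1 was at 19.7 CPM in magnesium, against 8.44 CPM in zoledronate. For each of these 4 genes the intervals of the libraries did not overlap, with magnesium above zoledronate. At this depth the same held for much smaller differences, so the gap does not set these genes apart. The matrix gene Bgn was at 2296 CPM in magnesium (2289 to 2304) and 2339 CPM in zoledronate (2332 to 2347), a ratio of -0.03. The share of all genes without overlap was not counted. The remaining factors past the threshold were Junb (169 CPM in magnesium against 111 CPM in zoledronate, log2 ratio 0.60), Jun (124 CPM in magnesium against 87.6 CPM in zoledronate, log2 ratio 0.49), Myc (74.4 CPM in magnesium against 56.7 CPM in zoledronate, log2 ratio 0.38) and Csrnp1 (9.30 CPM in magnesium against 4.97 CPM in zoledronate, log2 ratio 0.79). Not every AP-1 gene shared the difference: Fosb was at 29.4 CPM in magnesium and 32 CPM in zoledronate, and Fosl1 at 5.37 CPM in magnesium and 4.92 CPM in zoledronate.

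The other members past the threshold on the higher side included genes that restrain signalling or growth. Dusp1 and Dusp6, phosphatases that switch off MAP kinases, were at 468 and 36.9 CPM in magnesium, against 323 and 23.7 CPM in zoledronate. Btg2, an antiproliferative gene, was at 95.6 CPM in magnesium, against 49.8 CPM in zoledronate. Ier2 was at 119.6 CPM in magnesium against 67 CPM in zoledronate, the survival gene Ier3 at 683 CPM in magnesium against 515 CPM in zoledronate, and Cyr61, a secreted matricellular protein, at 511 CPM in magnesium against 404 CPM in zoledronate. The 1 member past the threshold on the lower side was Gadd45b, which encodes a stress and DNA damage sensor. It was at 256 CPM in magnesium against 325 CPM in zoledronate, a log2 ratio of -0.34.

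**Figure D2:**
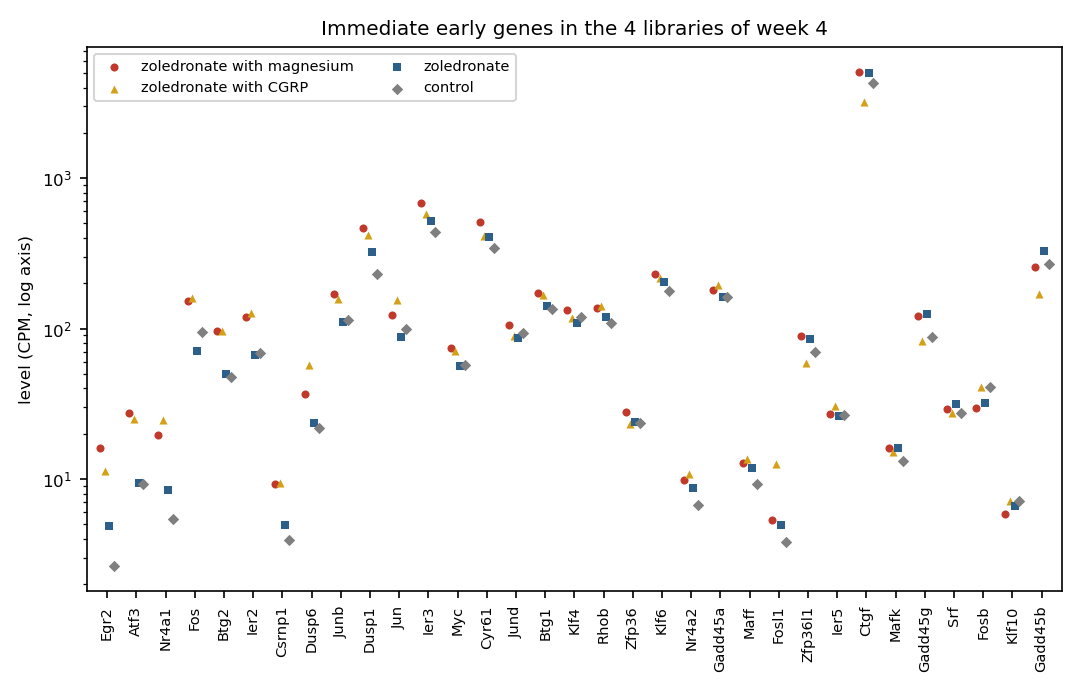
Level (y axis, CPM, log axis) of the 33 immediate early genes compared (x axis, from the highest to the lowest log2 ratio of magnesium over zoledronate) in the 4 libraries of week 4, 1 point per library. From Egr2 at 16 CPM in magnesium and 4.88 CPM in zoledronate to Cyr61 the magnesium points lie above the zoledronate points, and Gadd45b at the right end lies below.

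Promoter sequences are shown for 5 of the higher members whose windows held motifs of the factors named above, so that the sequence can be read beside the values. They are from RefSeq, build GRCr8, and span 250 bases before to 50 bases after the gene start. Of the 14 higher members, 8 had a promoter in the table, and those of Atf3, Fos, Myc, Ier3, Jun and Csrnp1 are not shown. Capitals mark the matches, and each sequence is written 5′ to 3′ on the strand of the gene:
Egr2 (chr20:21054392-21054691, minus strand): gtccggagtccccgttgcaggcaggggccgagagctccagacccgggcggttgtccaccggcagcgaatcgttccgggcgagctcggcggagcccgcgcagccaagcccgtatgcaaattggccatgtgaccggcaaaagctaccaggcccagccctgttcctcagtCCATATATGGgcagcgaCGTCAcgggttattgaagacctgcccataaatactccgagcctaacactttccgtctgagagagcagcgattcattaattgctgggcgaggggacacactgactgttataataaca
Nr4a1 (chr7:134259888-134260187, plus strand): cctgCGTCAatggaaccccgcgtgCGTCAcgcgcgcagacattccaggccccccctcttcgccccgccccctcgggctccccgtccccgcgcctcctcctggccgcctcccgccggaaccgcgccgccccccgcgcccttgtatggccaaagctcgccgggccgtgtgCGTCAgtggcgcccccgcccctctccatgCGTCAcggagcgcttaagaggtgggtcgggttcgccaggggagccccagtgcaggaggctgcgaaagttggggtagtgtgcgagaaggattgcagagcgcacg
Ier2 (chr19:40399123-40399422, plus strand): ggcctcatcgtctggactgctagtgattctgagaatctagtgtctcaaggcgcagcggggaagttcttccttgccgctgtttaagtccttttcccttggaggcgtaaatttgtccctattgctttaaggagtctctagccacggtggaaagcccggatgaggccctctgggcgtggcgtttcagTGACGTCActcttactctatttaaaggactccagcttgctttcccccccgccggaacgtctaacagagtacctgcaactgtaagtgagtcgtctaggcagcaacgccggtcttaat
Btg2 (chr13:48087641-48087940, minus strand): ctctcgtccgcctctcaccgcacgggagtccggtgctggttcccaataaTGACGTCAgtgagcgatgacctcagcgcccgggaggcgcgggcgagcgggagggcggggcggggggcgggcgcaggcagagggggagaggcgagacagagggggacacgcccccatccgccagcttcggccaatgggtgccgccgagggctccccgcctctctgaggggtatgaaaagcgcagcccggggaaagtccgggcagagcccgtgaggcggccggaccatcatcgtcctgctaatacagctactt
Junb (chr19:40080876-40081175, plus strand): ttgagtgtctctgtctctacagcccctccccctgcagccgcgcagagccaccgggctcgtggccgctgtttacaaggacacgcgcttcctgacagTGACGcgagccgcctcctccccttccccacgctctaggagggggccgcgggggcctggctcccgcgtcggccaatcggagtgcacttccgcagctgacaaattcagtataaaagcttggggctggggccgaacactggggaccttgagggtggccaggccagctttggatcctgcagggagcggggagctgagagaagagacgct

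The capitals in the Egr2 promoter are a CArG box and a cyclic AMP response element core (CGTCA, or TGACG on the other strand). Nr4a1 held 4 copies of the core, Junb held 1 as TGACG, and Ier2 and Btg2 each held the full palindrome TGACGTCA, which contains the core on both strands. Both strands were searched over the 33469 promoters of the table. List members were counted once per gene, with a match in any promoter of the gene, whereas the shares of all promoters count each promoter. The full element TGACGTCA was found for 3 of the 8 higher members and for 5 of the 26 members with a promoter among the 33 compared, against 1.83% of all promoters. The core was in 7 of the 8 and 16 of the 26, against 21.2% of all promoters, and includes the promoters with the full element. A CArG box was in 1 of the 8 and 4 of the 26, against 1.64%. The AP-1 motif TGANTCA was in 0 of the 8 and 1 of the 26, against 7.33%. A match describes the letters of the window and shows no binding.

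Summed over the 14 higher members, the UMIs were spread over most cells rather than carried by a few. After each cell was thinned to 5000 UMIs, which lost no cell, the 14 higher members summed to a median of 12 UMIs per cell in magnesium, against 8 in zoledronate. The middle 80% of cells ran from 6 to 21 UMIs in magnesium and from 3 to 15 in zoledronate. The 10% of cells with most of these UMIs held 19.6% of them in magnesium and 20.7% in zoledronate. Ier3, Cyr61 and Dusp1 gave most to this sum, with means of 3.45, 2.60 and 2.39 UMIs per cell of 12.8 in magnesium. In zoledronate they gave 2.62, 2.06 and 1.63 of 8.86. Fos alone was less even: the 10% of cells with most Fos held 43.5% of its UMIs in magnesium and 57.6% in zoledronate. Fos was detected in 44.9% of the thinned cells in magnesium and 26.1% in zoledronate, Ier2 in 41.4% in magnesium and 25.5% in zoledronate, and Egr2 in 7.0% in magnesium and 2.21% in zoledronate. These 14 were chosen by their ratio, so the shift of their sum follows from that choice. Over all 33 members the median was 46 UMIs per cell in magnesium and 41 in zoledronate.

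**Figure D3:**
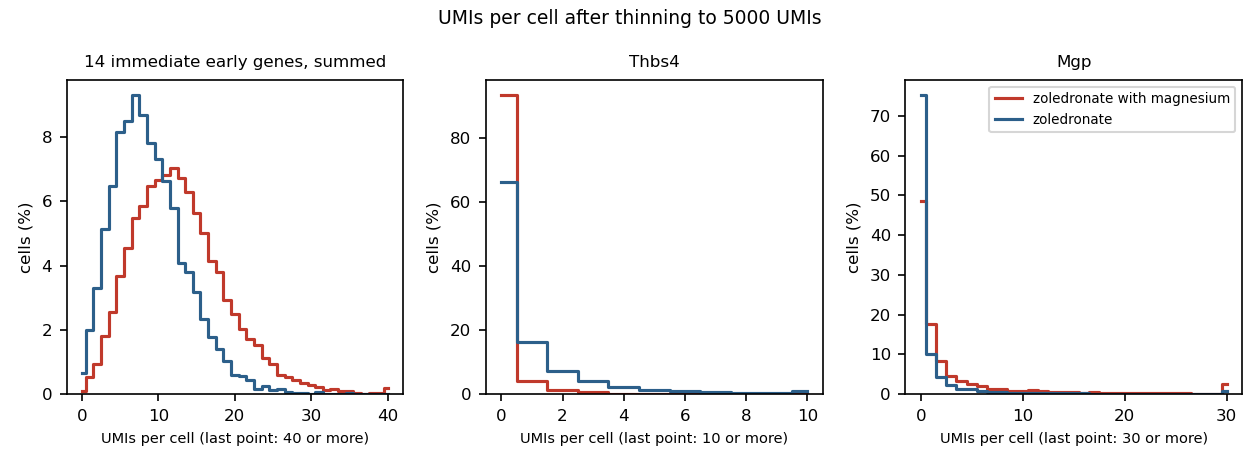
Share of cells (y axis, %) by UMIs per cell (x axis) after thinning to 5000 UMIs, in the magnesium library (red) and the zoledronate library (blue), for the sum of the 14 immediate early genes that were higher, for Thbs4 and for Mgp. The curve of the summed immediate early genes is shifted as a whole, with medians of 12 UMIs in magnesium and 8 in zoledronate. The single genes Thbs4 and Mgp differ mainly in the share of cells at 0. A sum of 14 genes and a single gene are unlike measures: Fos alone, not drawn, was at 0 in 55.1% of cells in magnesium and 73.9% in zoledronate.

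The difference in immediate early genes was present at every depth of cell. The median of the list was 0.45 in cells of 5000 to 10000 UMIs, 0.28 from 10000 to 20000, 0.22 from 20000 to 40000 and 0.31 at 40000 or more, where the medians of all genes were 0.07, 0.00, -0.01 and -0.05. Heat shock genes, another rapid response, did not share it: of 16 compared, 0 were higher in magnesium and 2 were lower, Cryab (82.2 CPM in magnesium against 115 CPM in zoledronate, log2 ratio -0.48) and Hspa1a (15 CPM in magnesium against 19.7 CPM in zoledronate, log2 ratio -0.37), and the median was 0.07. Their summed UMIs per thinned cell had a median of 27 in both libraries.

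The zoledronate library was not the only library of week 4 with low levels of these genes. Beside 152 CPM in magnesium and 71.2 CPM in zoledronate, Fos was at 158 CPM in the CGRP library and 94.5 CPM in the control library. Egr2 was at 11.3 CPM in CGRP and 2.62 CPM in control, Atf3 at 25 CPM in CGRP and 9.32 CPM in control, and Nr4a1 at 24.7 CPM in CGRP and 5.41 CPM in control. For all 4 genes the magnesium and CGRP libraries lay above the zoledronate and control libraries. These 4 were chosen by their ratio of magnesium over zoledronate, and the whole list did not follow them. All 44 members summed to 9202 CPM in magnesium, 8271 CPM in zoledronate, 7198 CPM in control and 6939 CPM in CGRP. By that sum the CGRP library was the lowest of the 4. At week 12 the same contrast gave a median of 0.02 over the 34 members compared, with 12 higher and 11 lower, while 18.6% of all genes were higher and 10.1% lower past the threshold in that pair, and 7.63% higher and 4.48% lower past 1.5-fold. Of the 4 genes above, Fos (log2 ratio 1.17) and Nr4a1 (1.22) were higher in magnesium at week 12. Egr2 was lower (-0.52), and Atf3 was within the threshold (-0.07).

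Nfkbiz had the third highest ratio at 10 CPM or more, leaving out identifiers with no gene name. It encodes a nuclear inhibitor-like protein that steers NF-kB target genes and was at 30.2 CPM in magnesium (29.4 to 31.1), against 9.20 CPM in zoledronate (8.73 to 9.68), and was detected in 13.3% of thinned cells in magnesium and 4.51% in zoledronate. Its promoter is shown because it holds the NF-kB motif (GGGA, any base, TTTCC), in capitals, which 0.362% of all promoters hold and none of the 26 immediate early promoters:
Nfkbiz (chr11:58251471-58251770, plus strand): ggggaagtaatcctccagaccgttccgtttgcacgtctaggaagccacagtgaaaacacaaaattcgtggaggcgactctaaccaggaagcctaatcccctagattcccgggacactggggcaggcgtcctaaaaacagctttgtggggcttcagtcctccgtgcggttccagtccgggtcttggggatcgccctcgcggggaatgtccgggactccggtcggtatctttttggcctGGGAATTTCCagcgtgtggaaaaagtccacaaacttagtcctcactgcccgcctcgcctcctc

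Sgk1, a kinase induced by serum and glucocorticoids, was at 67.3 CPM in magnesium, against 37 CPM in zoledronate, 79.2 CPM in CGRP and 24.9 CPM in control. It belongs to a list of 12 compared glucocorticoid-responsive genes, of which Sgk1 and Dusp1 were higher, none was lower and the median was 0.17. Fkbp5 and Tsc22d3, the classical glucocorticoid targets, were at 15.1 and 62.8 CPM in magnesium and 14.7 and 66.4 CPM in zoledronate. Of 8 stromal chemokines and cytokines compared, 0 were higher and 1 was lower, the alarmin Il33, at 5.72 CPM in magnesium against 13 CPM in zoledronate. Of 6 interferon-response genes compared, 0 were past the threshold either way, with Ifitm3 lowest at -0.32.

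Large differences in opposite directions were found in RT1-A2 and RT1-A1, which encode heavy chains of the rat class I histocompatibility molecules that present peptides to T cells. RT1-A2 was at 61.5 CPM in magnesium (60.3 to 62.8), against 10.0 CPM in zoledronate (9.53 to 10.5), a log2 ratio of 2.50. RT1-A1 was at 5.43 CPM in magnesium (5.06 to 5.81), against 28.2 CPM in zoledronate (27.4 to 29.1), a ratio of -2.19. The 2 genes are near-identical copies, so the share of reads given to each is uncertain. Their sum was 67.0 CPM in magnesium and 38.3 CPM in zoledronate, of which RT1-A1 took 8.10% in magnesium and 73.8% in zoledronate. In CGRP it took 34.7% and in control 52.6% of the sum.

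In thinned cells, RT1-A2 alone was detected in 25.6% of cells in magnesium and 4.10% in zoledronate, and RT1-A1 alone in 2.24% in magnesium and 12.7% in zoledronate. Both were detected in 0.757% in magnesium and 0.523% in zoledronate, and neither in 71.4% in magnesium and 82.7% in zoledronate. B2m, which encodes the light chain that all class I heavy chains need, was at 944 CPM in magnesium and 937 CPM in zoledronate. The other 5 RT1 genes compared had ratios from -0.82 to 0.23, with RT1-A3 lowest at 5.83 CPM in magnesium and 11 CPM in zoledronate and RT1-CE5 highest at 27.3 CPM in magnesium and 23.2 CPM in zoledronate. RT1 genes below 5 CPM on average, which were not compared, ran from -1.33 to 0.33. Lowest were RT1-T24-4 (0.874 CPM in magnesium, 3.71 CPM in zoledronate) and RT1-EC2 (0.613 CPM in magnesium, 2.54 CPM in zoledronate, ratio -1.13). Highest was RT1-CE15 (0.333 CPM in magnesium, 0.0574 CPM in zoledronate). All these other RT1 genes were examined after the values of RT1-A1 and RT1-A2 were seen. RT1-A alleles differ between individual outbred rats, and the part of the animals in this difference cannot be told apart from that of the treatment.

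Matrix genes differed in both directions. Mgp encodes matrix Gla protein, an inhibitor of calcification, and was at 702 CPM in magnesium (697 to 706), against 231 CPM in zoledronate (229 to 234). It was at 124 CPM in CGRP and 325 CPM in control, so the magnesium library had the highest level of the 4. Thbs4, which encodes a thrombospondin of tendon and muscle matrix, had the lowest ratio of the 15 lowest genes. It was at 25.7 CPM in magnesium (24.9 to 26.5), against 162 CPM in zoledronate (159.6 to 164), with 102 CPM in CGRP and 55 CPM in control. Here the magnesium library was the lowest of the 4 and the zoledronate library the highest.

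Both genes were uneven between cells. After thinning, Mgp was detected in 51.5% of cells in magnesium and 24.7% in zoledronate, and 10.1% of cells in magnesium and 3.35% in zoledronate held 10 or more Mgp UMIs. The 10% of cells with most Mgp held 72.1% of its UMIs in magnesium and 85.3% in zoledronate. Thbs4 was detected in 6.67% of cells in magnesium and 33.7% in zoledronate, and its 99th percentile was 3 UMIs per cell in magnesium and 9 in zoledronate.

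Among the 19 matricellular genes compared, which encode matrix proteins that signal to cells, 6 were higher in magnesium and only Thbs4 was lower. Over all genes 1.65% were higher and 1.72% lower. The median of the list was 0.09. The 6 were Cyr61, given above, Tnc (tenascin C), Comp, Nov, Spp1 and Cthrc1. Spp1, osteopontin, was at 1115 CPM in magnesium, against 727 CPM in zoledronate, 745 CPM in CGRP and 724 CPM in control. Tnc was at 19.6 CPM in magnesium and 10.9 CPM in zoledronate, Comp, a thrombospondin of cartilage and tendon, at 57.8 CPM in magnesium and 36.1 CPM in zoledronate, and Nov at 15.2 CPM in magnesium and 9.30 CPM in zoledronate. Cthrc1, a secreted protein of healing tissue, was at 122 CPM in magnesium and 92 CPM in zoledronate.

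Of 7 small leucine-rich proteoglycans compared, which bind collagen fibrils, 2 were higher and none lower, against 1.65% and 1.72% of all genes. Their median was 0.23. Dcn, decorin, was at 206 CPM in magnesium, against 134 CPM in zoledronate, and Lum, lumican, at 218 CPM in magnesium against 168 CPM in zoledronate. Both genes were low in the CGRP library, at 9.31 and 21.7 CPM, and at 148 and 192 CPM in control. Of 10 fibrillar and fibril-associated collagens compared, 0 were higher and 1 was lower, Col14a1, a collagen on the fibril surface, at 31.2 CPM in magnesium against 54 CPM in zoledronate. The median of this list was -0.05. The collagen-modifying lysyl hydroxylase Plod2 was the 1 higher gene of 18 that process collagen, at 749.5 CPM in magnesium and 563 CPM in zoledronate.

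Basement membrane genes had 1 lower member of 7, Col4a1, at 35.4 CPM in magnesium and 55 CPM in zoledronate, and elastic fibre genes 1 higher member of 9, Ltbp4, a binder of latent TGF beta, at 15 CPM in magnesium and 8.83 CPM in zoledronate. Of 7 cartilage genes compared, Comp and the proteoglycan linker Hapln1 (50.8 CPM in magnesium, 31.8 CPM in zoledronate) were higher and Cilp was lower (20.4 CPM in magnesium, 37 CPM in zoledronate). The chondrocyte genes Sox9 and Acan were at 89 and 118 CPM in magnesium and 92.1 and 132 CPM in zoledronate, neither past the threshold.

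Matrix-degrading enzymes and their inhibitors had 4 higher members of 13 and 1 lower, against 1.65% and 1.72% of all genes, with a median of 0.07. Timp3, an inhibitor held in the matrix, was at 22.1 CPM in magnesium, against 12.6 CPM in zoledronate. Adamts5, an aggrecanase, was at 7.53 CPM in magnesium against 4.48 CPM in zoledronate, Adamts1 at 45.6 CPM in magnesium against 34.8 CPM in zoledronate and Mmp16 at 8.66 CPM in magnesium against 6.71 CPM in zoledronate. Mmp23 was lower, at 57.4 CPM in magnesium and 72.3 CPM in zoledronate. Both proteases and an inhibitor were thus among the higher members.

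**Figure D4:**
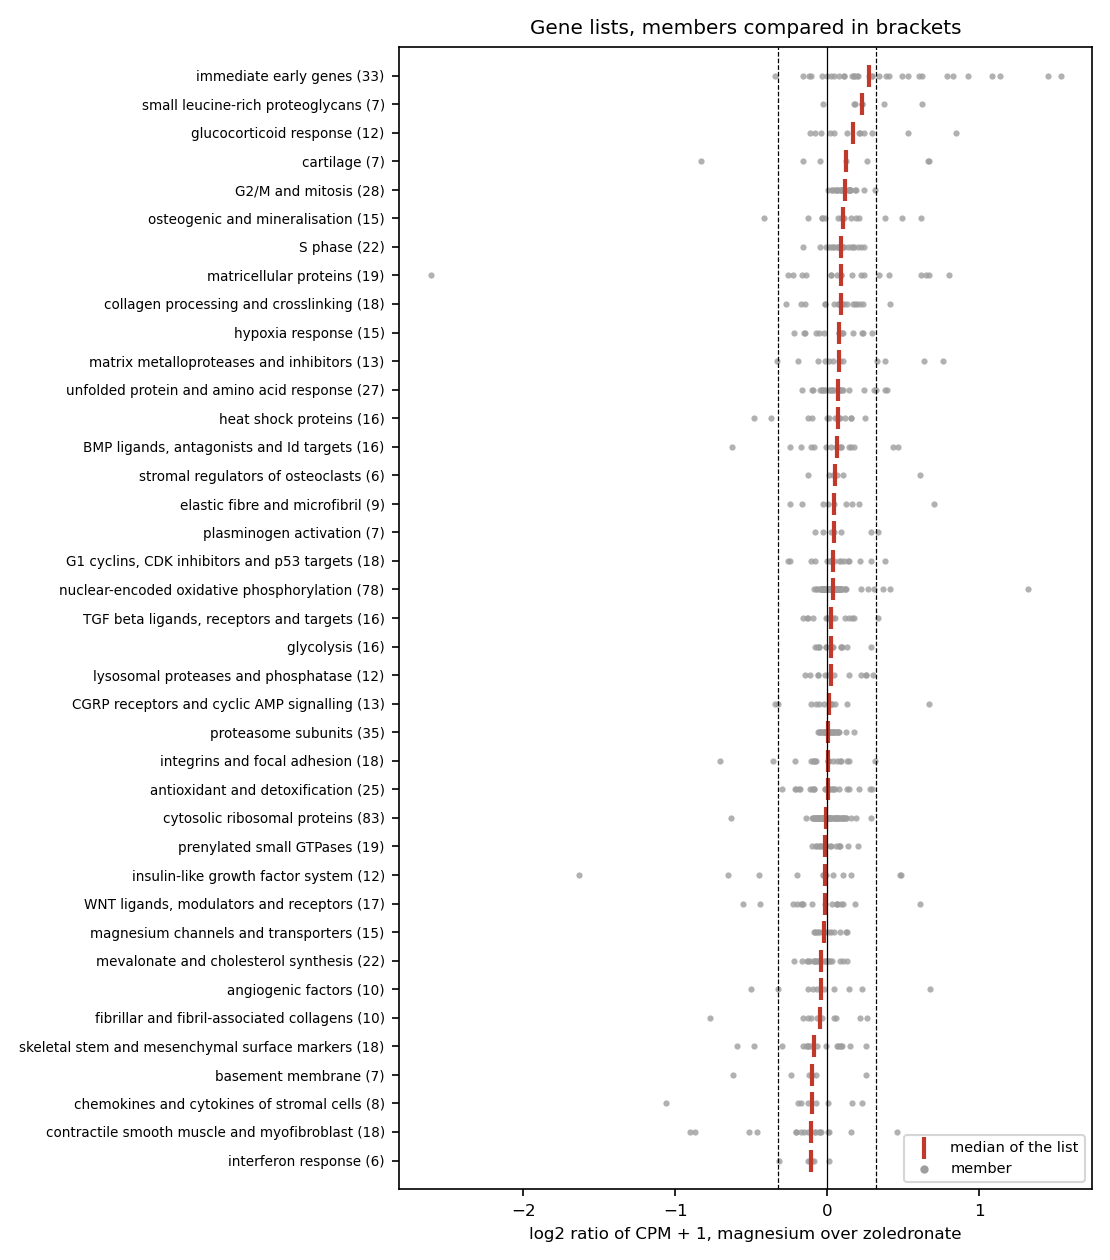
Log2 ratio of magnesium over zoledronate (x axis, CPM plus 1) of the members of each gene list (grey points), with the median of the list as a red bar, the number of members compared in brackets and dashed lines at the 25% threshold. The medians run from -0.11 for interferon response genes to 0.28 for immediate early genes, and most members of most lists lie between the dashed lines.

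Bone-forming genes differed in both directions. Of 15 osteogenic and mineralisation genes compared, 3 were higher and 1 was lower, against 1.65% and 1.72% of all genes, with a median of 0.10. Enpp1, which makes the mineralisation inhibitor pyrophosphate, was at 130.1 CPM in magnesium and 99.9 CPM in zoledronate, the parathyroid hormone receptor Pth1r at 7.22 CPM in magnesium and 4.85 CPM in zoledronate, and Spp1 is given above. Ibsp, bone sialoprotein, was lower, at 5.69 CPM in magnesium and 7.93 CPM in zoledronate. Runx2 and Alpl, early markers of bone formation, were at 20.5 and 33.9 CPM in magnesium and 17.9 and 31.4 CPM in zoledronate, within the threshold.

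Among 16 genes of BMP signalling, which directs bone and cartilage formation, Id1 and Id2, direct targets that block differentiation factors, were higher. Id1 was at 175 CPM in magnesium, against 126 CPM in zoledronate, 275 CPM in CGRP and 110.5 CPM in control, and Id2 at 15.5 CPM in magnesium against 11.2 CPM in zoledronate. The list median was 0.07. Of 17 WNT genes compared, the ligand Wnt16 was higher (26.4 CPM in magnesium, 16.9 CPM in zoledronate), and the enhancer Rspo1 (34.1 CPM in magnesium and 50.5 CPM in zoledronate) and the modulator Sfrp2 (4.79 CPM in magnesium and 6.88 CPM in zoledronate) were lower. Wnt16 was also the 1 higher gene of 6 stromal regulators of osteoclasts.

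The insulin-like growth factor system differed in 5 of 12 members compared, against 3.38% of all genes either way. Igf1, the growth factor itself, was at 18.3 CPM in magnesium (17.6 to 19), against 58.9 CPM in zoledronate (57.7 to 60.1), a log2 ratio of -1.63, with 17.6 CPM in CGRP and 49.1 CPM in control. It was detected in 5.71% of thinned cells in magnesium and 12.9% in zoledronate. Of the binding proteins that hold the factor, Igfbp3 and Igfbp6 were lower, at 165 and 64.5 CPM in magnesium, against 259.7 and 88.3 CPM in zoledronate. Igfbp2 and Igfbp4 were higher, at 6.43 and 16.8 CPM in magnesium, against 4.33 and 11.7 CPM in zoledronate. The median over the list was -0.02.

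Contractile genes of smooth muscle and myofibroblasts leaned lower in magnesium, with 4 of 18 members lower, 1 higher and a median of -0.10. Over all genes 1.72% were lower and 1.65% higher. Acta1, an actin of striated muscle, was at 32.1 CPM in magnesium and 60.7 CPM in zoledronate. The other 10 skeletal muscle markers summed to 5.45 CPM in magnesium and 5.0 CPM in zoledronate, with Pax7, Myod1 and Myog listed in neither. Myh11, the smooth muscle myosin, was at 17.4 CPM in magnesium and 25.2 CPM in zoledronate, its kinase Mylk at 6.08 CPM in magnesium and 8.74 CPM in zoledronate, and the integrin Itga8 at 5.59 CPM in magnesium and 11 CPM in zoledronate. Actg2, an enteric smooth muscle actin, was higher, at 187 CPM in magnesium and 135 CPM in zoledronate. Pln, phospholamban, which inhibits the calcium pump of muscle, was at 9.82 CPM in magnesium and 23.2 CPM in zoledronate. The 10 markers of pericytes and smooth muscle summed to 55.1 CPM in magnesium and 70.8 CPM in zoledronate, with Rgs5 listed in neither. Their part in these differences was not tested.

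The few adhesion and surface genes past the threshold were all lower in magnesium, as were 1.72% of all genes. Of 18 integrin and focal adhesion genes, the collagen receptor subunit Itga1 (6.03 CPM in magnesium, 10.5 CPM in zoledronate) and Tns3 (50.9 CPM in magnesium and 65.6 CPM in zoledronate) were lower and none was higher. Of 18 skeletal stem and mesenchymal surface markers, Cd200 (38.7 CPM in magnesium, 58.9 CPM in zoledronate) and the PDGF receptor Pdgfrb (17.8 CPM in magnesium and 25.2 CPM in zoledronate) were lower and none was higher. The median was 0.005 for the adhesion genes, with 10 of 18 ratios above 0. It was -0.09 for the surface markers, with 7 of 18 above 0. Among 10 angiogenic factors, Fgf7, a growth factor for epithelium, was higher (11.9 CPM in magnesium, 7.05 CPM in zoledronate) and Ecm1 lower (21.4 CPM in magnesium and 30.8 CPM in zoledronate).

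The remaining genes among the 15 highest came from no single list. Fam111a, a protease of the nucleus that restricts viruses, was at 101 CPM in magnesium (99.3 to 103), against 31.6 CPM in zoledronate (30.8 to 32.5). It was at 304 CPM in CGRP and 203 CPM in control, so that the zoledronate library was the lowest of the 4. Ndufa4l2, a hypoxia-induced mitochondrial protein, was at 61.8 CPM in magnesium, against 24.2 CPM in zoledronate, 14.6 CPM in CGRP and 78.2 CPM in control. The surface protein Msln (mesothelin) was at 29.3 CPM in magnesium and 10.2 CPM in zoledronate, the imprinted zinc finger gene Peg3 at 39.2 CPM in magnesium and 20.7 CPM in zoledronate, and Odf3l1 at 25.9 CPM in magnesium and 14.3 CPM in zoledronate.

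The remaining genes among the 15 lowest included several known from neurons and blood cells. Stmn2, a tubulin-binding protein of neurons, was at 11.9 CPM in magnesium (11.3 to 12.4), against 48.8 CPM in zoledronate (47.7 to 49.9), with 33.5 CPM in CGRP and 5.44 CPM in control. The 9 Schwann and neural markers summed to 53.1 CPM in magnesium and 54.1 CPM in zoledronate, with Sox10 listed in neither. Gzmb, granzyme B of cytotoxic lymphocytes, was at 5.65 CPM in magnesium and 20.4 CPM in zoledronate, while the 10 lymphocyte markers summed to 0.0400 CPM in magnesium and 0.0638 CPM in zoledronate. Fez1, an adaptor for kinesin, was at 15.1 CPM in magnesium and 33.2 CPM in zoledronate, and Sncg, a synuclein, at 8.42 CPM in magnesium and 15.6 CPM in zoledronate.

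Crabp1, which binds retinoic acid in the cytoplasm, was at 5.84 CPM in magnesium and 18.6 CPM in zoledronate. The thrombin receptor F2r was at 23 CPM in magnesium and 43.2 CPM in zoledronate, and Aoc3, an amine oxidase of the cell surface, at 14.7 CPM in magnesium and 28.7 CPM in zoledronate. G0s2, an inhibitor of fat breakdown, was at 6.71 CPM in magnesium and 14.5 CPM in zoledronate. All of these were lower in magnesium in level and in the share of cells that held a UMI: F2r in 10.2% of thinned cells in magnesium and 17.3% in zoledronate, Stmn2 in 2.09% in magnesium and 7.48% in zoledronate, and Gzmb in 2.09% in magnesium and 7.36% in zoledronate. No class of cells lacking these genes was at hand, so free RNA could not be measured beside these shares.

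**Figure D5:**
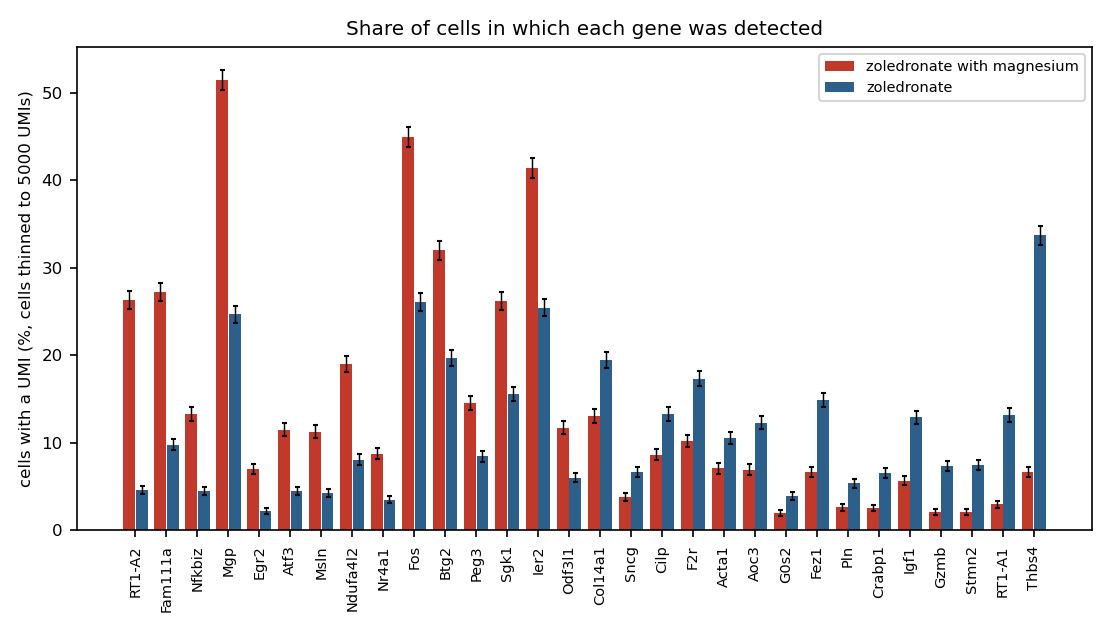
Share of cells with at least 1 UMI (y axis, %) after thinning to 5000 UMIs for the 15 highest and 15 lowest genes (x axis, from the highest to the lowest log2 ratio), in the magnesium library (red, left of each pair) and the zoledronate library (blue), with 95% exact binomial intervals for counting error. The share differs in the direction of the level for each gene, from RT1-A2 at 26.4% in magnesium and 4.63% in zoledronate to Thbs4 at 6.67% in magnesium and 33.7% in zoledronate.

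Magnesium channels and transporters were within the threshold, as were 96.6% of all genes. Of 24 magnesium channels and transporters, 20 were listed and 15 compared, and none was past the threshold either way, with ratios from -0.09 to 0.13 and a median of -0.02. Trpm7, the main magnesium channel of most cells, was at 51 CPM in magnesium and 49.4 CPM in zoledronate, and Tusc3 at 64 CPM in magnesium and 64.8 CPM in zoledronate. The mitochondrial channel Mrs2 was at 9.05 CPM in magnesium and 9.30 CPM in zoledronate, and Magt1 at 10.7 CPM in magnesium and 9.76 CPM in zoledronate. The exporters Slc41a1, Slc41a2 and Slc41a3 had ratios of -0.07, -0.08 and -0.05, and Cnnm2, Cnnm3 and Cnnm4, which regulate magnesium efflux, ratios of 0.13, 0.09 and -0.02. Ratios were -0.09 for Nipa1, 0.02 for Nipa2, -0.02 for Mmgt1, -0.06 for Mmgt2 and 0.01 for Slc39a14. Cnnm1, Nipal2, Nipal4, Zdhhc17 and Cldn19 were listed at no more than 2.44 CPM.

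Of 22 mevalonate and cholesterol genes compared, 0 were past the threshold either way, against 3.38% of all genes, and the median was -0.04. Fdps, the enzyme that zoledronate blocks, was at 365 CPM in magnesium, against 385 CPM in zoledronate, 426 CPM in CGRP and 474 CPM in control. None of 19 prenylated small GTPases, which need the products of this pathway, was past the threshold. Of 13 genes of CGRP and cyclic AMP signalling compared, the phosphodiesterase Pde4b was higher (7.49 CPM in magnesium, 4.34 CPM in zoledronate), and the cyclase Adcy3 (10.5 CPM in magnesium and 13.6 CPM in zoledronate) and the receptor partner Ramp3 (13.9 CPM in magnesium and 17.7 CPM in zoledronate) were lower.

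Cell cycle genes showed a small shift in 1 direction. All 28 G2 and mitosis genes compared had ratios above 0, with a median of 0.11 and a highest value of 0.31 (Hmgb2), and 0 were past the threshold. Mki67, a marker of dividing cells, was at 80.3 CPM in magnesium and 72.4 CPM in zoledronate, and a UMI of any of Mki67, Top2a, Ccnb1, Cdk1 or Cenpf was found in 25.7% of thinned cells in magnesium (24.7 to 26.8%) and 23.1% in zoledronate (22.2 to 24.1%). Of 22 S phase genes, 19 had ratios above 0, and the median was 0.09. Mitosis genes are expressed together in dividing cells, so these members are not separate measurements.

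Metabolic and housekeeping genes were mostly within the threshold, as were 96.6% of all genes. None of 16 glycolysis, 15 hypoxia, 25 antioxidant, 12 lysosomal or 35 proteasome genes compared was past the threshold, and their medians lay between 0.00 and 0.08. Of 78 nuclear genes of oxidative phosphorylation, 3 were higher: Ndufa4l2, given above, the succinate dehydrogenase subunit Sdha (38.5 CPM in magnesium, 28.6 CPM in zoledronate) and Cox4i2 (11.2 CPM in magnesium and 8.43 CPM in zoledronate). Of 83 ribosomal protein genes, only Rpl39l, a near-copy of Rpl39 whose reads may be shared, was past the threshold, at 13.4 CPM in magnesium and 21.3 CPM in zoledronate. Of 27 genes of the unfolded protein and amino acid response, Chac1 (82.7 CPM in magnesium and 62.9 CPM in zoledronate) and Sesn2 (41.7 CPM in magnesium and 31.9 CPM in zoledronate) were higher.

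The genes that varied most between cells were nearly the same in both libraries, with 17 of the 20 highest Fano factors (variance over mean of thinned UMIs) shared. Mgp led in both, at 46.8 in magnesium and 29.9 in zoledronate, followed by Spp1 (34.4 in magnesium and 23.8 in zoledronate) and Col1a1 (27.1 in magnesium and 22.4 in zoledronate). Mt1, a metal-binding metallothionein, had a Fano factor of 15.5 in magnesium against 4.40 in zoledronate, while its level was 107 CPM in magnesium and 86.9 CPM in zoledronate. The chemokine Ccl2 had the reverse order, at 7.46 in magnesium and 12.3 in zoledronate, and was found in 4.06% of thinned cells in magnesium and 3.25% in zoledronate. Mt1 and Ccl2 were singled out after their values were seen.

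The leading genes examined by depth each kept their direction at every depth of cell, but not all their size. In the 4 depth ranges given above, the log2 ratio of Thbs4 lay between -2.91 and -2.39, that of Mgp between 1.58 and 2.96, that of Igf1 between -2.23 and -1.60 and that of RT1-A2 between 1.85 and 3.19. The ratio of Spp1 was 0.03 in cells of 5000 to 10000 UMIs (193 cells in magnesium, 148 in zoledronate) and 0.73, 0.53 and 0.48 in the deeper ranges, and that of Stmn2 ran from -3.21 in the shallowest cells to -0.93 in the deepest. The levels themselves varied with depth: Mgp was at 1068 CPM in magnesium and 275.8 CPM in zoledronate in cells of 5000 to 10000 UMIs, and at 293.0 CPM in magnesium and 36.8 CPM in zoledronate in cells of 40000 or more.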

How the data were processed

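Single-cell libraries (10x Chromium V3, per the series' design text) of callus cells were compared between 1 magnesium and 1 zoledronate library of week 4. The authors deposited 1 table of UMI counts per library, 1 row per gene and 1 column per barcode; the values were whole numbers and not normalized. Reads were aligned with STAR to Rnor_6.0, per the submitters' processing notes; cell calling and filters are not stated. No mitochondrial gene was listed in these tables. Genes absent from a library's table count as 0 there, although each table holds only genes detected in at least 5 of its barcodes.

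From these counts, barcodes with at least 5000 UMIs were kept, UMIs were summed per gene and library and scaled to counts per 1000000 (CPM), and log2 ratios of magnesium over zoledronate were taken after adding 1 CPM. Genes listed in both libraries with a mean of at least 5 CPM were compared, and those at least 25% apart were counted. Levels have 95% exact Poisson intervals and shares of cells 95% exact Clopper-Pearson intervals; both cover counting error only. For shares, sums per cell and Fano factors each cell was thinned at random to 5000 UMIs. With 1 library a side there was no test and no p-value. Doublets were not removed.

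Named genes were the 15 highest and 15 lowest ratios at a mean of at least 10 CPM, of each list the 2 highest and 2 lowest members and any past the threshold (those the text leaves out are summarised by counts), every listed magnesium channel or transporter, Fdps and Mki67. Identifiers with no gene name (LOC, RGD, AABR, AC, ENSRNOG or MGC followed by digits) were left out of the highest and lowest. The members, gene lists and this rule were chosen with earlier results of these data known, so the lists are no independent support. Older symbols matched 6 list members by RefSeq synonyms, such as Cyr61. Promoters came from RefSeq (GRCr8). Alternatives changed the barcode minimum, scaling (TMM of edgeR 4.0.16, size factors of DESeq2 1.42.0), pseudocount, CPM filter, fold, cell weighting and the cells kept. The calculation was tested on simulated data. Python 3.11.15, numpy 2.4.6, scipy 1.17.1, pandas 2.3.3, matplotlib 3.10.9 and R 4.3.3 were used. A few list members are not reported here.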

Additional observations from a re-analysis of the deposited data

Results flagged for a closer look

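For 12 of the 29 genes among the 15 highest and 15 lowest at week 4 that were also compared at week 12, the log2 ratio of magnesium over zoledronate pointed the other way past 1.5-fold at week 12. Over all genes compared at week 12, 7.63% were higher and 4.48% lower past 1.5-fold. Each week had 1 library a side, and the difference between weeks was not tested.

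With the log2 ratio of week 4 before that of week 12 in brackets, higher in magnesium at week 4 and lower at week 12 were RT1-A2 (2.5 at week 4 and -5.14 at week 12), Mgp (1.6 and -2.49) and Peg3 (0.89 and -1.38). Lower at week 4 and higher at week 12 were the matrix genes Thbs4 (-2.61 and 0.81), Cilp (-0.83 and 2.66) and Col14a1 (-0.77 and 2.07). The same held for the histocompatibility gene RT1-A1 (-2.19 and 4.36), for Fez1 (-1.09 and 1.13) and Sncg (-0.82 and 1.37), for the receptor F2r (-0.88 and 0.62), and for Aoc3 (-0.92 and 2.06) and G0s2 (-1.0 and 3.72).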

How the results depend on the processing

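No named gene past the threshold changed sign under any alternative, and all 30 of the highest and lowest genes kept their sign and stayed at least 1.5-fold apart in each alternative in which they were compared. The 243 genes past the 25% threshold became 62 (37 higher, 25 lower) with a filter of 50 CPM, 460 (210 and 250) with no filter and 82 (44 and 38) at 1.5-fold, changes that follow from the number of genes compared or the fold asked. Under the other alternatives the count lay between 241 and 284. Which side was larger depended on the setting: 119 higher and 124 lower as reported, but 126 and 119 with every barcode, 125 and 118 with DESeq2 factors, 152 and 132 with thinned cells, 124 and 120 with the mean of per-cell CPM, and 127 and 122 in cells of 10000 to 30000 UMIs. The median of the immediate early genes was 0.21 with no filter and between 0.27 and 0.30 otherwise. Counting every deposited barcode left 119 of the 119 higher and 117 of the 124 lower genes past the 25% threshold, and leaving out cells with a mitotic UMI left 110 of 117 and 110 of 123. No paired analysis was possible because each group is 1 library, and no library could be left out. Depth limits genes below 5 CPM, Egr1 among them.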
